A study of Arabidopsis thaliana with 24 samples.

Results

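AT1G68670 and AT1G25550 are related Arabidopsis genes for transcription factors of the GARP family, and their transcripts were followed through plants that overproduce flavonoids and plants that lack them. Each gene was taken through the probe set that the platform annotation pairs with that gene alone. This gave 1 probe set per gene, 262284_at for AT1G68670 and 255734_at for AT1G25550, and thus 2 of the 22746 probe sets other than controls. Both passed the filter on low signals, which 14935 probe sets passed. The genes were chosen by their signals across the 8 genotypes in these same arrays, so their levels and differences are given below as a description and without p-values.

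GARP factors bind DNA through a single Myb-like domain. The family holds PHR1, the main regulator of the phosphate starvation response, and the HRS1 group, members of which are induced by nitrate and lower the expression of nitrogen and phosphate starvation genes in roots. Flavonoids, among them flavonols and anthocyanins, are known to build up in leaves of plants short of nitrogen or phosphate.

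The study measured total RNA from aerial parts of 3-week-old plants on 24 Affymetrix ATH1 arrays, with 3 arrays for each of 8 genotypes. WOX1-1 and WOX1-2 are lines from crosses of MYB12OX with pap1-D, and so carry both overexpressed regulators. MYB12OX/tt4 and pap1-D/tt4 carry 1 overexpressed regulator in plants without chalcone synthase (CHS), the enzyme that opens flavonoid synthesis. In MYB12OX the flavonol regulator MYB12 is overexpressed, and in pap1-D the anthocyanin regulator MYB75, also called PAP1. The mutant tt4 lacks CHS alone, and Col-0 is the wild type and the background of these lines. Each overexpressor is 1 line, and the labels name no promoter or cell type for the regulator. Plants grew on agar with sucrose. The growth protocol also describes a drought experiment, and no label ties an array to it or excludes it. Nothing in the labels says that the 3 arrays per genotype stand for separate plants or pools, so SDs, SEs and p-values cover the spread among arrays, part of which may be technical.

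The values are MAS5 signals, scaled so that the trimmed mean was 500 on every array. Median signals lay between 163.9 and 176.7, and arrays of 1 genotype correlated at 0.980 to 0.992 across probe sets. The leaf markers RCA (Rubisco activase) and SBPASE (a Calvin cycle phosphatase) read 18031 to 27159 and 6193 to 10006 over the 24 arrays. Of 12 root markers the platform annotation paired 2 with a probe set of their own. EXPA7, an expansin of root hairs, read 2.81 to 54.2, whereas PYK10, an abundant beta-glucosidase of roots and seedlings, read 1140 to 2635. The flower and seed markers, 5 each, had no such probe set in this annotation. Of the 13 comparisons of a pair of genotypes, 5 share the Col-0 arrays, so a deviation of those arrays would recur in each of them.

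AT1G68670 was brightest in the single overexpressors and dimmest in the plants without CHS. Its signals on the 3 arrays were 1850, 1703 and 1376 in WOX1-1 and 1161, 1271 and 1077 in WOX1-2. They were 959, 1032 and 1051 in MYB12OX/tt4 and 902, 932 and 972 in pap1-D/tt4. MYB12OX gave 1919, 2093 and 2021, and pap1-D gave 2409, 2000 and 1924. The highest array of all was thus a pap1-D array. The mutant tt4 gave 815, 1049 and 911, against 1208, 1534 and 1729 in Col-0. The Col-0 arrays spread more widely than those of most other genotypes, with an SD of 263 around a mean of 1490.

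AT1G25550 showed the same high and low genotypes, with a different place for WOX1-1. Its signals were 1752, 1802 and 1476 in WOX1-1 and 1435, 1582 and 1504 in WOX1-2. MYB12OX/tt4 gave 1300, 1261 and 1367, and pap1-D/tt4 gave 1361, 1509 and 1492. None of these 6 arrays read above 1509. MYB12OX gave 2720, 2545 and 2586, and pap1-D gave 2550, 2386 and 2120. The mutant tt4 gave 1472, 1463 and 1355, against 1876, 2072 and 2565 in Col-0. The Col-0 arrays again spread the most, with an SD of 355 around a mean of 2171.

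**Figure D1:**
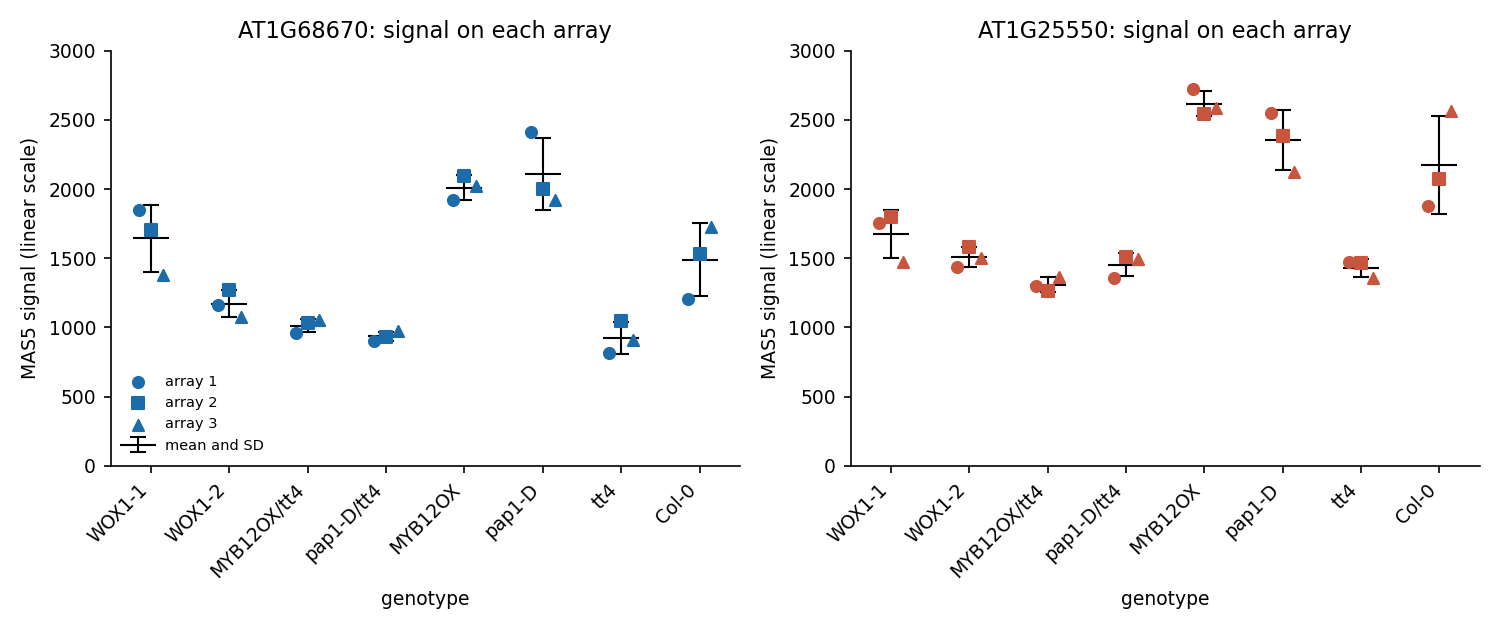
MAS5 signal (linear scale) of AT1G68670 and AT1G25550 on each of the 24 arrays by genotype, with points for arrays and bars for the mean ± SD (n = 3). The genotypes without CHS sit lowest in both panels, with AT1G68670 between 815 and 1051 and AT1G25550 between 1261 and 1509.

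Ordered by mean signal, AT1G68670 ran from pap1-D (2111 ± 261, SD, n = 3) and MYB12OX (2011 ± 87.6) through WOX1-1 (1643 ± 243), Col-0 (1490 ± 263) and WOX1-2 (1170 ± 97.4) to MYB12OX/tt4 (1014 ± 48.3), pap1-D/tt4 (936 ± 34.7) and tt4 (925 ± 118). Of the neighbours in this order, MYB12OX and WOX1-1 did not overlap in their arrays, nor did WOX1-2 and MYB12OX/tt4, and the other neighbours did overlap. Of all tested probe sets, 11.3% were lower without overlap in WOX1-1 than in MYB12OX. That share was not taken for MYB12OX/tt4 against WOX1-2. AT1G25550 ran from MYB12OX (2617 ± 91.4), pap1-D (2352 ± 217) and Col-0 (2171 ± 355) to WOX1-1 (1677 ± 175), WOX1-2 (1507 ± 73.2), pap1-D/tt4 (1454 ± 81.2), tt4 (1430 ± 65.3) and MYB12OX/tt4 (1309 ± 53.8). Here Col-0 and WOX1-1 were the neighbours whose arrays did not overlap, as for 18.0% of the tested probe sets in this direction. In RNA from whole aerial parts, fewer cells that hold a transcript and less of it per cell cannot be told apart.

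Set against Col-0, the single overexpressors were higher for AT1G68670. On the log2(signal + 42.6) scale, on which all differences below are given, MYB12OX exceeded Col-0 by 0.44 ± 0.12 (SE) and pap1-D exceeded it by 0.50 ± 0.12. The arrays did not overlap in either comparison. Of all tested probe sets, 7.47% were higher without overlap in MYB12OX and 10.9% in pap1-D. For AT1G25550 the differences were 0.28 ± 0.09 in MYB12OX and 0.12 ± 0.09 in pap1-D, and the arrays overlapped in both. The size for AT1G68670 varied with the Col-0 array left out: without Col-0 replicate 1 it was 0.30 in MYB12OX and 0.36 in pap1-D, and without Col-0 replicate 3 it was 0.55 and 0.61. For AT1G25550 the same omissions gave 0.18 and 0.40 in MYB12OX, and 0.024 and 0.25 in pap1-D.

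The lines with both regulators read lower than the single overexpressors and, for AT1G25550, lower than Col-0. AT1G68670 differed from Col-0 by 0.14 ± 0.12 in WOX1-1 and -0.33 ± 0.12 in WOX1-2, with overlapping arrays in both, and the WOX1-1 value was 0.0019 without Col-0 replicate 1. It was 0.26 without WOX1-1 replicate 3. The WOX1-2 value was -0.47 without Col-0 replicate 1 and -0.21 without Col-0 replicate 3. AT1G25550 was lower than Col-0 in both lines, by -0.36 ± 0.09 in WOX1-1 and -0.50 ± 0.09 in WOX1-2, with no overlap. Such separation downwards was seen for 18.0% of the tested probe sets in WOX1-1 and 20.6% in WOX1-2. Without Col-0 replicate 3 these differences were -0.23 and -0.38.

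Against each parent both genes were lower in both crossed lines, and in none of these 8 comparisons did the arrays overlap. In WOX1-1, AT1G68670 differed by -0.29 ± 0.12 from MYB12OX and by -0.36 ± 0.12 from pap1-D. The first of these was -0.18 without WOX1-1 replicate 3, and the second was -0.24. AT1G25550 differed by -0.63 ± 0.09 from MYB12OX and by -0.48 ± 0.09 from pap1-D. The tested probe sets that were lower without overlap in WOX1-1 made up 11.3% against MYB12OX and 5.22% against pap1-D. In WOX1-2, AT1G68670 differed by -0.76 ± 0.12 from MYB12OX and by -0.83 ± 0.12 from pap1-D. That last difference ranked 23 from the lowest of the 14935 tested. AT1G25550 differed by -0.78 ± 0.09 and -0.63 ± 0.09 from the same parents. In WOX1-2, 15.3% of the tested probe sets were lower without overlap than in MYB12OX, and 9.04% than in pap1-D.

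**Figure D2:**
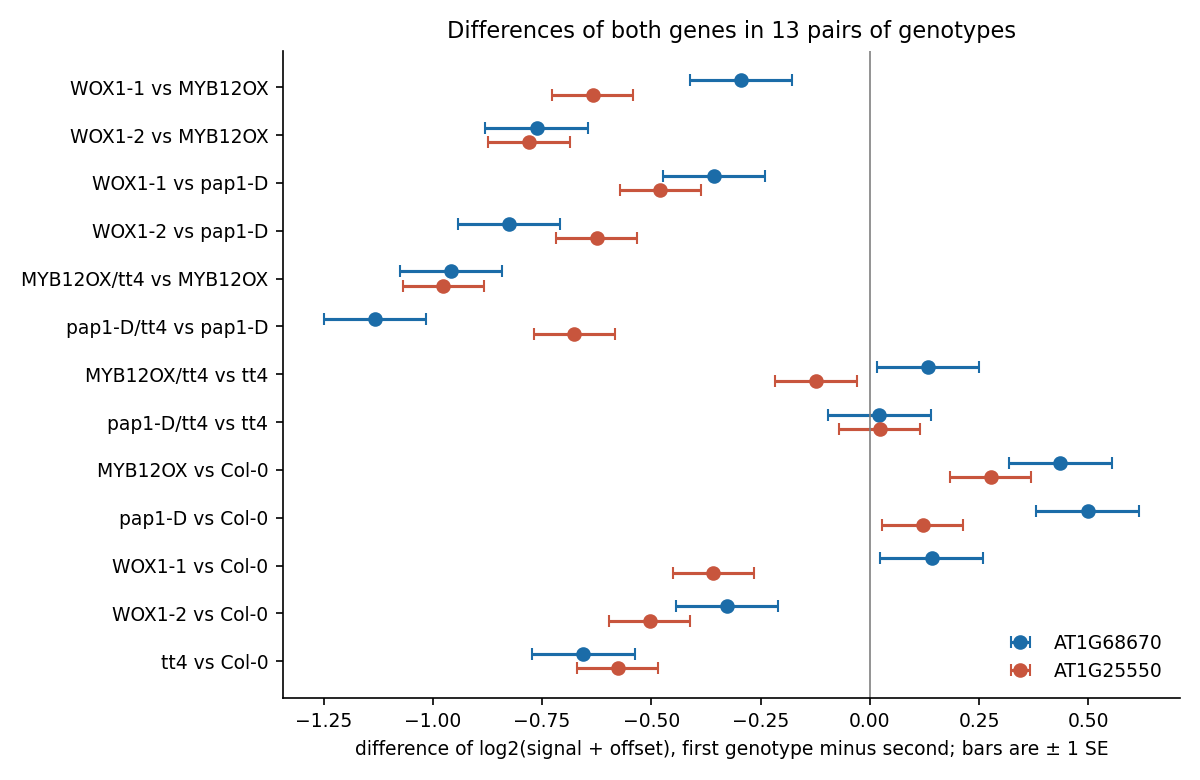
Differences of AT1G68670 and AT1G25550 on the log2(signal + 42.6) scale for each pair of genotypes, with bars for ± SE from the common fit and a vertical line at 0. The comparisons of the crossed lines with their parents, and of plants without CHS with their counterparts that have it, all lie left of 0.

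The crossed lines can also be set against the sum of the single differences. For AT1G68670 the differences of MYB12OX and pap1-D from Col-0 add up to 0.93, which corresponds to a signal of 2857. WOX1-1 averaged 1643 and WOX1-2 averaged 1170. The shortfall, measured as the effect of pap1-D on top of MYB12OX minus its effect in Col-0, was -0.79 ± 0.17 in WOX1-1 and -1.26 ± 0.17 in WOX1-2. Among all tested probe sets these values ranked 88 and 13 from the lowest. For AT1G25550 the single differences add up to 0.40, a signal of 2850, where WOX1-1 averaged 1677 and WOX1-2 averaged 1507. Its shortfall was -0.76 ± 0.13 in WOX1-1 and -0.90 ± 0.13 in WOX1-2, ranks 105 and 56. Across all tested probe sets the medians of this quantity were 0.02 in WOX1-1 and 0.03 in WOX1-2. When 1 of the 12 arrays was left out at a time, the shortfall of AT1G68670 in WOX1-2 stayed between -1.37 and -1.12 and that of AT1G25550 between -1.03 and -0.80.

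**Figure D3:**
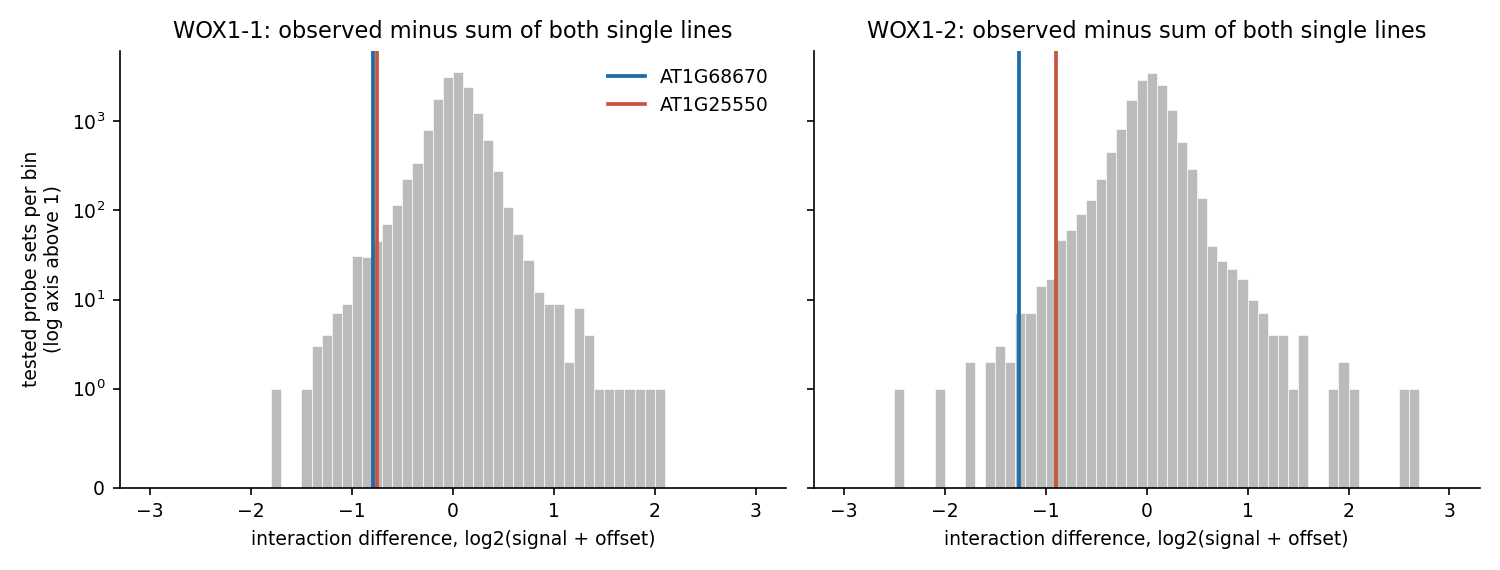
Distribution over the 14935 tested probe sets of the difference between the effect of pap1-D in MYB12OX plants and its effect in Col-0, for WOX1-1 and WOX1-2 (log2 units, number of probe sets on a log axis). Vertical lines mark AT1G68670 (-0.79 and -1.26) and AT1G25550 (-0.76 and -0.90), which lie in the left tail in both panels.

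The crossed lines can be set against each other too. AT1G68670 was lower in WOX1-2 than in WOX1-1 by -0.47 with no overlap of arrays, a pattern held by 6.43% of the tested probe sets. For AT1G25550 the difference between these lines was -0.15, and their arrays overlapped through WOX1-1 replicate 3. Without that array the difference was -0.23 and the arrays did not overlap, and without WOX1-1 replicate 2 it was -0.093. Whether the lines differ more for AT1G68670 than for AT1G25550 was not tested.

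Plants without CHS had lower signals of both genes than their counterparts with it, with or without an overexpressed regulator. In tt4 against Col-0 the differences were -0.66 ± 0.12 for AT1G68670 and -0.58 ± 0.09 for AT1G25550. The arrays did not overlap for either gene, as for 22.2% of the tested probe sets. In MYB12OX/tt4 against MYB12OX they were -0.96 ± 0.12 and -0.98 ± 0.09, and in pap1-D/tt4 against pap1-D they were -1.13 ± 0.12 and -0.68 ± 0.09, again with no overlap. Downward separation was found for 15.7% of the tested probe sets in MYB12OX/tt4 and 14.2% in pap1-D/tt4. As shares of the Col-0 mean, AT1G68670 stood at 68.0% for MYB12OX/tt4, 62.8% for pap1-D/tt4 and 62.1% for tt4, and AT1G25550 stood at 60.3%, 67.0% and 65.9%.

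Within plants without CHS, the arrays with and without an overexpressed regulator overlapped for both genes. In MYB12OX/tt4 against tt4 the difference was 0.13 for AT1G68670 (95% interval -0.11 to 0.38) and -0.12 for AT1G25550 (-0.32 to 0.07). In pap1-D/tt4 against tt4 it was 0.022 for AT1G68670 (-0.22 to 0.26) and 0.022 for AT1G25550 (-0.17 to 0.22). These intervals leave room for differences in either direction. The values for AT1G68670 varied with the tt4 array left out: without tt4 replicate 1 they were 0.049 in MYB12OX/tt4 and -0.062 in pap1-D/tt4, and without tt4 replicate 2 they were 0.22 and 0.11. For AT1G25550 in pap1-D/tt4 the value was -0.015 without tt4 replicate 3 and 0.068 without pap1-D/tt4 replicate 1. The effect of the regulator in tt4 plants minus its effect in plants with CHS was -0.30 ± 0.17 for AT1G68670 and -0.40 ± 0.13 for AT1G25550 with MYB12OX. With pap1-D it was -0.48 ± 0.17 and -0.10 ± 0.13. Without Col-0 replicate 1 the MYB12OX value of AT1G68670 was -0.16 and the pap1-D value of AT1G25550 was -0.0018, and without Col-0 replicate 3 the second of these was -0.22.

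Taking the arrays by the presence of CHS, AT1G68670 read 815 to 1051 (median 959) on the 9 arrays without it and 1077 to 2409 (median 1729) on the 15 arrays with it. The ranges did not overlap, as for 0.703% of the tested probe sets in this direction. The gap was narrow, since the lowest array with CHS, of WOX1-2, stood at 1077. AT1G25550 read 1261 to 1509 (median 1367) without CHS and 1435 to 2720 (median 2072) with it, and 3 arrays with CHS lay at or below 1509.

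The genotypes without CHS are also the last 9 arrays of the listing, and the listing moved with the whole data set. The first principal component held 34.5% of the variance and followed that order, with means of 21.1 in tt4 and -25.4 in Col-0. Within each of the 8 genotypes, too, it was higher on each array listed later. Over the 24 arrays it correlated at -0.80 with AT1G68670 and at -0.84 with AT1G25550, and the place in the listing did so at -0.80 and -0.82. Loss of CHS and a late place in the listing cannot be told apart across these arrays. The same holds for the crossed lines, which were listed after Col-0 and both parents. PYK10 differed between genotypes too, with means of 1364 ± 231 in tt4, 1591 ± 330 in MYB12OX/tt4 and 1526 ± 412 in pap1-D/tt4 (SD, n = 3 each). The means were 2322 ± 288 in MYB12OX, 2030 ± 70.4 in pap1-D and 1676 ± 99.5 in Col-0. In the crossed lines PYK10 averaged 2061 ± 588 (WOX1-1) and 1980 ± 138 (WOX1-2). The leaf markers were lower without CHS as well. Genotype means of SBPASE ran from 6748 (tt4) to 7167 (MYB12OX/tt4) without CHS. With CHS they ran from 7821 (WOX1-2) to 9415 (Col-0). Means of RCA ran from 20157 (MYB12OX/tt4) to 21337 (tt4) without CHS. With CHS they ran from 23608 (MYB12OX) to 24993 (Col-0). The part of PYK10, SBPASE and RCA in the differences of the GARP genes was not tested. With the place in the listing as a covariate, the differences of both genes kept their signs in all 18 comparisons fitted, but their errors grew: tt4 against Col-0 was -0.81 ± 0.77 for AT1G68670 and -0.60 ± 0.61 for AT1G25550. In that fit WOX1-2 against MYB12OX was -0.83 ± 0.35 for AT1G68670 and -0.79 ± 0.27 for AT1G25550. WOX1-1 against MYB12OX was -0.34 ± 0.25 and -0.64 ± 0.20. Against Col-0, WOX1-2 stood at -0.42 ± 0.45 and -0.52 ± 0.36. The WOX1-2 shortfall from the sum of the single differences was -1.28 ± 0.20 and -0.90 ± 0.16.

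The signals of the 2 genes followed each other across arrays. Pearson's r was 0.89 and Spearman's rho 0.84 over the 24 arrays, and r was 0.90 over the 8 genotype means. After each genotype's mean was taken out r was 0.73, and 16 of the 24 arrays deviated in the same direction for both. These arrays share scaling, RNA and hybridization for both probe sets, so the values describe the libraries. Of 8124 other tested probe sets with 1 gene, 10 had a higher r with AT1G68670 and 3 a higher r with AT1G25550. Both genes were chosen by their signals on these same arrays, so r and these counts are a description and no test of likeness. The ratio of the genes departed most from that of Col-0 in WOX1-1 and pap1-D. Relative to Col-0, the log2 ratio of AT1G68670 to AT1G25550 within an array was 0.50 ± 0.10 in WOX1-1 and 0.38 ± 0.09 in pap1-D (SD, n = 3 each). It was 0.18 ± 0.10 for WOX1-2, 0.18 ± 0.07 for MYB12OX/tt4, -0.08 ± 0.05 for pap1-D/tt4, 0.16 ± 0.11 in MYB12OX and -0.08 ± 0.19 in tt4, and the Col-0 arrays lay between -0.08 and 0.11. Every array of WOX1-1, pap1-D and MYB12OX/tt4 lay above every Col-0 array, the last narrowly, with a lowest array of 0.111 against a highest of 0.109 in Col-0.

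The genes whose pattern over the 24 arrays was most like that of AT1G68670 were AT2G24550 (r = 0.93), LPR2 (0.93), AT3G49810 (0.92), AT2G44230 (0.92) and AT1G28600 (0.91). LPR2 takes its name from the low phosphate response of roots. WOX1-1 averaged 985 ± 98.8 for LPR2, WOX1-2 averaged 898 ± 77.1, MYB12OX 1179 ± 44.4, pap1-D 1098 ± 31.1 and Col-0 1077 ± 70.0 (SD, n = 3 each). Without CHS its means were 795 ± 10.5 (MYB12OX/tt4), 753 ± 26.0 (pap1-D/tt4) and 688 ± 32.2 (tt4). The most opposite patterns were those of AT1G79160 (-0.94), AT1G16500 (-0.93) and AT1G11820 (-0.91). AT1G79160 averaged 503 ± 41.5 in WOX1-2, 269 ± 34.9 in MYB12OX, 321 ± 3.99 in pap1-D, 681 ± 44.3 in tt4 and 450 ± 56.4 in Col-0. Its value for the effect of pap1-D on top of MYB12OX minus that in Col-0 was 1.24 ± 0.15 in WOX1-2, opposite in sign to that of AT1G68670. AT1G79160 was picked for its opposite pattern on these same arrays, so that sign follows from the choice.

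For AT1G25550 the closest, apart from AT1G68670, which 3 candidates exceeded, were AT5G64190 (r = 0.94), AT1G04770 (0.90), AT1G70810 (0.90), AT5G02180 (0.89) and AT2G29300 (0.89). AT5G64190 averaged 124 ± 24.3 in WOX1-1, 112 ± 7.63 in WOX1-2, 211 ± 16.9 in MYB12OX, 194 ± 26.0 in pap1-D, 102 ± 22.8 in tt4 and 181 ± 14.7 in Col-0. The most opposite were AT1G14890 (-0.92), AT1G01300 (-0.88) and ATMAP65-6 (-0.88), a microtubule-associated protein gene. After genotype means were taken out, r kept a size of 0.27 to 0.66 for the 8 genes of AT1G68670 and 0.11 to 0.74 for the 8 of AT1G25550, and none of them was then among the 5 most like or 3 most opposite.

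**Figure D4:**
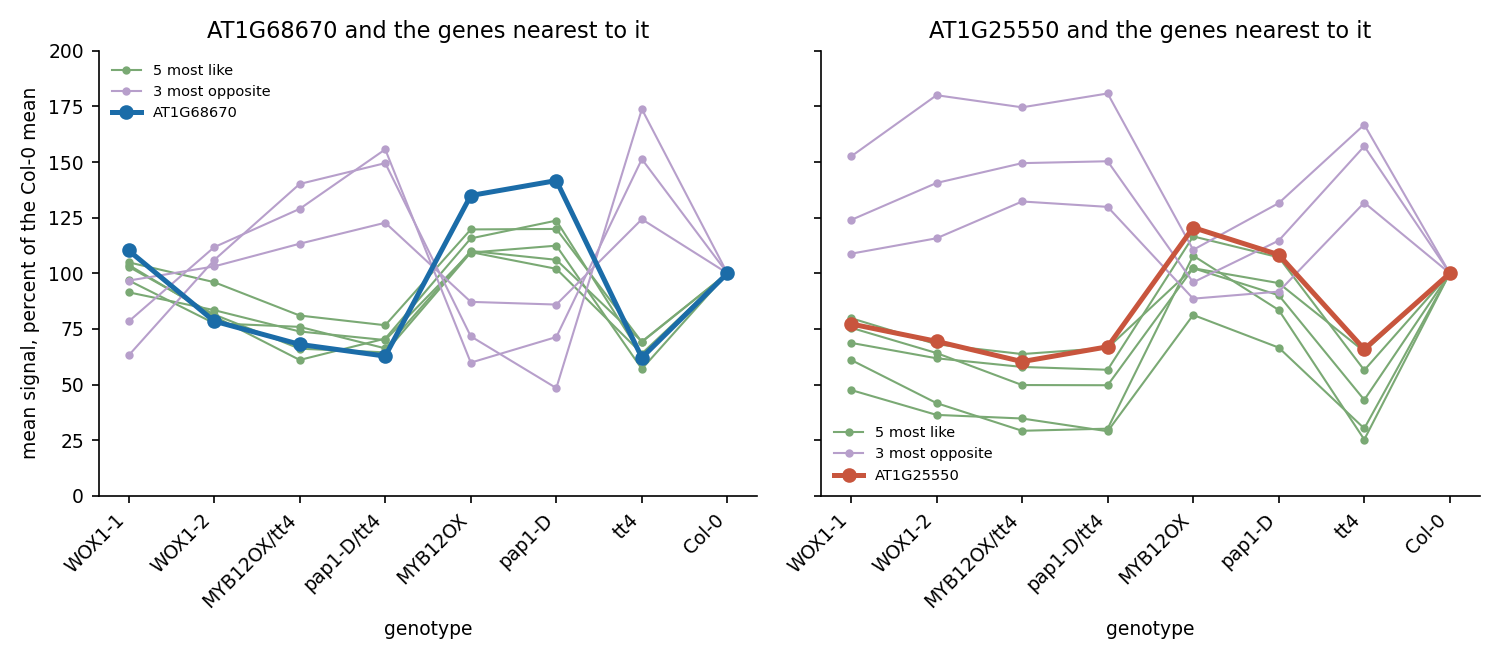
Genotype mean signals (linear scale) as a percent of the Col-0 mean for each GARP gene (thick line), the 5 genes most like it apart from the other GARP gene and the 3 most opposite (n = 3 arrays per mean). Lines join genotypes for the eye only. The like genes share the low values of the plants without CHS, which follows from their choice by correlation over these same arrays.

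Of the other genes of these pathways few could be read by name. The 5 lists held 5 other genes of the HRS1 group, 23 other GARP genes, 20 of nitrate sensing, 33 of nitrogen uptake and assimilation and 28 of the phosphate starvation response. Among them the platform annotation paired 13 with a probe set of their own, and 10 were tested: 2, 3, 1, 2 and 2 in that order. The other 3 (AT3G25790 of the HRS1 group, RR18 and LPR1) did not pass the filter. AT3G25790 read 1.69 to 26.4 over the 24 arrays. Listed genes that the annotation pairs with no probe set may still be on the array, since many probe sets carry no gene name in it. Genes with no symbol in the RefSeq table are given by their AT code and by the list that holds them.

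Within the HRS1 group, AT4G37180 rose and AT1G49560 fell. AT4G37180 rose by 0.50 ± 0.08 in pap1-D (limma adjusted p = 0.000374), 0.41 ± 0.08 in WOX1-1 (adjusted p = 0.00108), 0.40 ± 0.08 in WOX1-2 (adjusted p = 0.000893) and 0.35 ± 0.08 in tt4 (adjusted p = 0.00159), each against Col-0. Its signals were 588, 556 and 574 in pap1-D and 466, 541 and 534 in tt4, against 384, 400 and 392 in Col-0. Every pap1-D and tt4 array was above the 3 of Col-0, as for 10.9% and 24.8% of all tested probe sets. AT1G49560 fell by 0.34 ± 0.10 in WOX1-1 (limma adjusted p = 0.0252) and by 0.41 ± 0.10 in WOX1-2 (adjusted p = 0.00522). It read 132, 152 and 157 in WOX1-2, against 215, 219 and 194 in Col-0. The WOX1-1 fall did not pass in limma without WOX1-1 replicate 1 (adjusted p = 0.158), Col-0 replicate 1 (adjusted p = 0.0860) or Col-0 replicate 2 (adjusted p = 0.0874).

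Among the other GARP genes, MYR2 differed between each overexpressor and its cross with tt4. It read 65, 53 and 75 in pap1-D and 109, 122 and 132 in WOX1-2, against 100, 136 and 87 in Col-0. It fell by 0.48 ± 0.14 in pap1-D against Col-0 (limma adjusted p = 0.0259). With CHS lost beside an overexpressed regulator it rose, by 0.44 ± 0.14 in MYB12OX/tt4 against MYB12OX (adjusted p = 0.0279) and by 0.60 ± 0.14 in pap1-D/tt4 against pap1-D (adjusted p = 0.00341). In tt4 against Col-0 it stood at -0.21 ± 0.14 and did not pass (adjusted p = 0.234). The pap1-D call was lost in 4 of 6 limma fits that left out 1 array, namely Col-0 replicate 1 or 2 or pap1-D replicate 1 or 2, with adjusted p up to 0.156. The MYB12OX/tt4 call was also lost in 4 of 6, without replicate 2 or 3 of MYB12OX or replicate 1 or 3 of MYB12OX/tt4, with adjusted p up to 0.132. These signals lie near the filter of 85.2, where the added 42.6 damps a fold change. AT3G24120 rose by 0.31 ± 0.10 in tt4 against Col-0 (limma adjusted p = 0.0139), with 671, 720 and 736 in tt4 and 563, 522 and 602 in Col-0, and did not pass without Col-0 replicate 2 (adjusted p = 0.0684) or tt4 replicate 3 (adjusted p = 0.0528). AT2G20400 passed in none of the comparisons in limma, and in tt4 against Col-0 it stood at 0.28 ± 0.14.

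The tested gene of the nitrate sensing list, AT3G60320, rose by 0.67 ± 0.11 in WOX1-1 (limma adjusted p = 0.000106), 0.77 ± 0.11 in WOX1-2 (adjusted p = 1.21e-05), 0.46 ± 0.11 in pap1-D (adjusted p = 0.00709) and 0.56 ± 0.11 in tt4 (adjusted p = 0.000268), against Col-0. Its signals were 3953, 4339 and 4326 in WOX1-2 and 3848, 3527 and 3481 in tt4, against 2631, 2400 and 2319 in Col-0. It also rose in MYB12OX/tt4 against MYB12OX, by 0.46 ± 0.11 (adjusted p = 0.00426). Of the nitrogen uptake list, AT2G26690, listed there as NPF6.2 of the NRT1/PTR transporter family, fell where CHS was lost. It fell by 0.55 ± 0.08 in tt4 against Col-0 (limma adjusted p = 1.92e-05), by 0.37 ± 0.08 in MYB12OX/tt4 against MYB12OX (adjusted p = 0.00329) and by 0.24 ± 0.08 in pap1-D/tt4 against pap1-D (adjusted p = 0.0441). The last passed in 1 of 6 limma fits that left out 1 array, that without pap1-D replicate 3, and its adjusted p reached 0.217 without pap1-D replicate 1. AT2G26690 read 861, 908 and 795 in tt4, against 1398, 1278 and 1133 in Col-0. NRT2.5, a high-affinity nitrate transporter gene, passed in none of the comparisons in limma, and its group means lay between 53.9 in WOX1-1 and 84.2 in MYB12OX/tt4.

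Of the 28 genes of the phosphate starvation list 2 were tested, and both fell in WOX1-2 and in tt4 against Col-0. Of all tested probe sets, limma called 23.1% in WOX1-2 and 36.5% in tt4, in either direction. AT1G63010 fell by 0.28 ± 0.08 in WOX1-2 (limma adjusted p = 0.0183) and by 0.25 ± 0.08 in tt4 (adjusted p = 0.0207). The larger fall was that of AT1G73600, which read 316, 359 and 273 in tt4 and 529, 532 and 441 in WOX1-2, against 1799, 1606 and 1396 in Col-0. It fell by 1.59 ± 0.14 in WOX1-2 (limma adjusted p = 6.06e-08). Against Col-0 it also stood at -2.19 ± 0.14 in tt4 (adjusted p = 2.57e-10) and -1.36 ± 0.14 in WOX1-1 (adjusted p = 1.05e-06). In pap1-D it stood at -0.88 ± 0.14 (adjusted p = 0.000374). For loss of CHS it stood at -1.35 ± 0.14 under MYB12OX (adjusted p = 1.30e-06) and -1.28 ± 0.14 under pap1-D (adjusted p = 2.37e-06). The tt4 fall of AT1G63010 did not pass in limma without tt4 replicate 3 (adjusted p = 0.118) or Col-0 replicate 2 (adjusted p = 0.0729), and the WOX1-2 fall did not without WOX1-2 replicate 2 (adjusted p = 0.0811) or Col-0 replicate 2 (adjusted p = 0.0695).

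Over the 10 tested genes of the 5 lists, 2 were higher and 2 lower in WOX1-1 against Col-0 in limma, where 16.8% of all tested probe sets were called in either direction. In WOX1-2 it was 2 and 3 (23.1% of all), in pap1-D 2 and 2 (10.1%) and in tt4 3 and 3 (36.5%). MYB12OX against Col-0 gave 0 calls in limma, with 3 of the 10 at an unadjusted p under 0.05, and 1.00% of all probe sets were called. Loss of CHS gave 2 higher and 2 lower under MYB12OX (17.4% of all) and 1 higher and 2 lower under pap1-D (18.9%). Within plants without CHS, limma called 0 of the 10 for either regulator, with 2 each at an unadjusted p under 0.05, and 0.187% and 0.147% of all probe sets for MYB12OX/tt4 and pap1-D/tt4. Some of the 10 were also called in the crossed lines against their parents. Those calls are not counted here, as the share of all probe sets called was not taken for them. The median difference of the 10 against Col-0 was -0.10 in WOX1-1, 0.05 in WOX1-2, -0.07 in pap1-D and -0.0036 in tt4, and that of all tested probe sets was -0.02, -0.03, -0.04 and 0.01.

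In the comparisons of effects between backgrounds, MYR2 was the listed gene that passed for WOX1-2, with the effect of pap1-D in MYB12OX plants exceeding that in Col-0 by 0.99 ± 0.19 (limma adjusted p = 0.0181; 0.422% of all called). For WOX1-1 limma called 0 of the 10, with 2 at an unadjusted p under 0.05 (0.0469% of all). The effect of pap1-D in tt4 plants exceeded that in plants with CHS by 0.81 ± 0.19 for MYR2 (adjusted p = 0.0355) and by 0.92 ± 0.20 for AT1G73600 (adjusted p = 0.0274), where 1.17% of all were called. For MYB12OX, limma called 0 of the 10, with 2 at an unadjusted p under 0.05 (0.268% of all). Of 12 limma fits that left out 1 array, the MYR2 call for WOX1-2 was lost in 5, with adjusted p up to 0.0620 (Col-0 replicate 2, MYB12OX replicate 2 or 3, pap1-D replicate 2 or WOX1-2 replicate 3). For pap1-D in tt4 plants, the MYR2 call was lost in 10 and that of AT1G73600 in 8, with adjusted p up to 0.0986 and 0.0984. With the place in the listing as a covariate, none of the calls among the 10 genes passed in limma in the comparisons with Col-0, for loss of CHS or between backgrounds, and the smallest adjusted p among them was 0.0802.

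**Figure D5:**
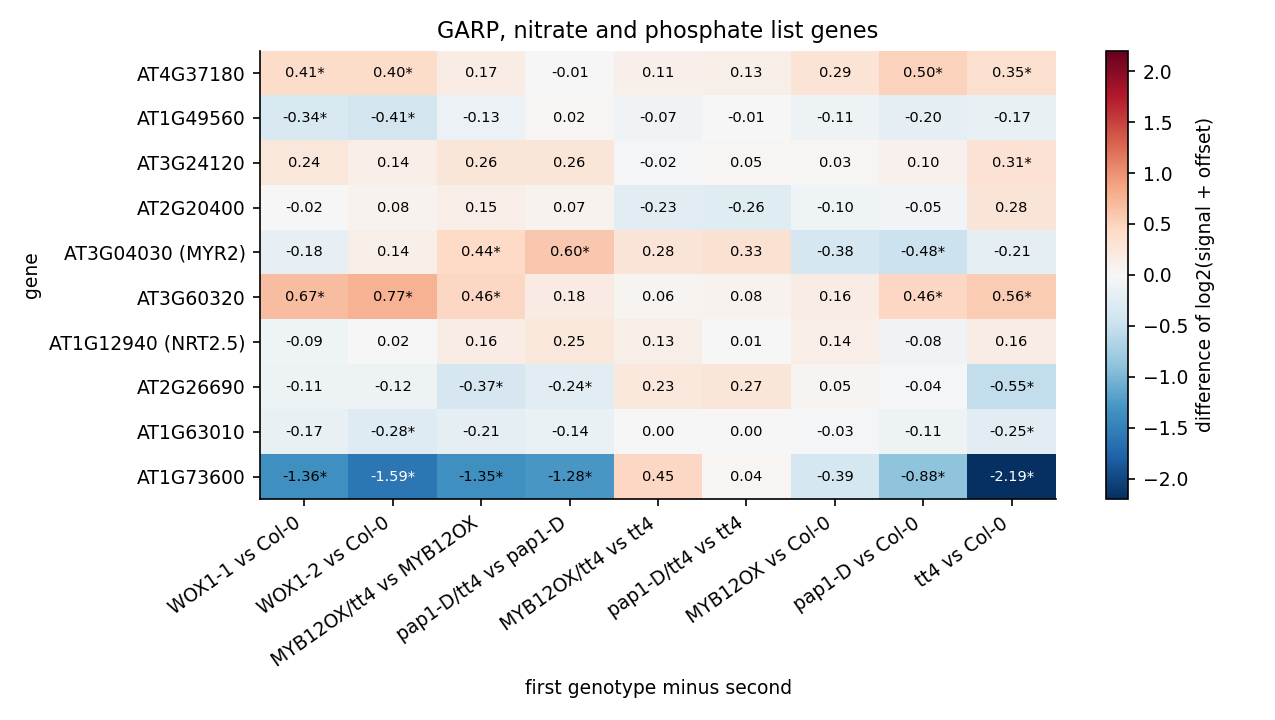
Differences of the 10 tested genes of the 5 lists for 9 comparisons of genotypes (log2(signal + 42.6) units, colour scale centred on 0), with an asterisk where the limma adjusted p was under 0.05. AT1G73600 shows the largest falls. AT3G60320 lies above 0 in the 5 comparisons with Col-0, with an asterisk in 4 of them.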

How the data were processed

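Signals of 24 ATH1 arrays (8 genotypes, 3 arrays each) were used as deposited. They are linear intensity values, for which the submitters' processing notes name MAS5. Its version and the genome build of the array design were not given in the sources used here. A trimmed mean of 500 on each array shows that the authors scaled the arrays, which evens out their brightness and can mask a change shared by most genes. The table holds no detection calls, and the number of arrays limits the precision.

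Of 22810 probe sets, 64 controls were left out. Before log2, 42.6 was added to each signal, the overall median of 170.4 over 4, which understates changes of dim genes. Probe sets above 85.2 on at least 3 arrays were tested (14935). One limma 3.58.1 fit in R 4.3.3 (lmFit, contrasts.fit, eBayes with trend, 16 residual degrees of freedom) gave 17 two-sided contrasts, with Benjamini-Hochberg adjustment over all tested probe sets and a threshold of 0.05. The procedure was tested on simulated data. Groups came from the genotype labels.

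Names came from the platform annotation, updated through RefSeq (TAIR10.1). In it 13513 probe sets stand for 1 gene, of which 13436 matched RefSeq, and 503 for several. The rest carry no gene name there, so they were matched to no listed gene. The 2 GARP genes and the gene lists were chosen with earlier results of these data known. The text names every called gene of 5 lists and, for each GARP gene, apart from the other GARP gene, the 5 genes with the highest and the 3 with the lowest Pearson correlation over the 24 arrays; list genes with no call, genes below the filter and the tissue markers were named in addition. Alternatives were 2 other offsets, no filter, quantile normalization, equal array medians, array weights, fits of the compared genotypes alone, the replicate number as a block, the listing place as a covariate and leaving out each array. Promoter and protein sequences were not used here.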

Additional observations from a re-analysis of the deposited data

Results flagged for a closer look

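AT1G68670 moved in opposite directions when 1 regulator was added to Col-0 and when it was added to the other overexpressor. Adding pap1-D to MYB12OX gave -0.29 in WOX1-1 and -0.76 in WOX1-2, with every array of the cross below every MYB12OX array, whereas pap1-D itself exceeded Col-0 by 0.50 with every array above. Adding MYB12OX to pap1-D gave -0.36 in WOX1-1 and -0.83 in WOX1-2, whereas MYB12OX exceeded Col-0 by 0.44, again with no overlap. Of all tested probe sets, 11.3% (WOX1-1) and 15.3% (WOX1-2) were lower without overlap than in MYB12OX, and 5.22% and 9.04% than in pap1-D. Higher without overlap than in Col-0 were 10.9% in pap1-D and 7.47% in MYB12OX. The share with both directions together was not taken. The difference between these effects was not tested, because the gene was chosen for its signal in these genotypes.

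MYR2 differed between backgrounds, by 0.99 for pap1-D in MYB12OX plants (WOX1-2) against Col-0 plants (limma adjusted p = 0.0181) and by 0.81 for pap1-D in tt4 plants against plants with CHS (adjusted p = 0.0355). AT1G73600 differed by 0.92 in the second of these (limma adjusted p = 0.0274). Of 12 limma fits that left out 1 array, the MYR2 calls were lost in 5 and 10 and the AT1G73600 call in 8. With the listing place as a covariate none of these calls passed, and the AT1G73600 value was -0.46.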

How the results depend on the processing

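The differences of AT1G68670 and AT1G25550 were fitted for 18 comparisons each, and changed sign in none of 9 alternative fits; those for WOX1-2 against WOX1-1 were added after seeing the data. That of MYB12OX/tt4 against MYB12OX was -0.88 and -0.91 with an offset of the overall median, and -1.05 for AT1G68670 with the listing place as a covariate. Leaving out single arrays changed a sign for pap1-D/tt4 against tt4, at -0.062 to 0.11 for AT1G68670 and -0.015 to 0.068 for AT1G25550. It gave -0.52 to -0.30 for the MYB12OX effect on AT1G25550 in tt4 plants minus that in plants with CHS. With the listing place as a covariate, 0 of the 10 listed genes were called in pap1-D, WOX1-1, WOX1-2 and tt4 against Col-0, for loss of CHS under either regulator, and between backgrounds for WOX1-2 and for pap1-D with and without CHS. In that fit 13 of 29 called differences had the other sign, with adjusted p of at least 0.227. They were those of AT1G73600 (0.042 in pap1-D, 0.024 in WOX1-1, 0.25 in WOX1-2 and 1.03 in tt4 against Col-0, 0.49 and 0.57 for loss of CHS under MYB12OX and pap1-D, and -0.46 between backgrounds), AT2G26690 (0.98 in tt4, 0.50 and 0.63 for loss of CHS), AT3G24120 (-1.27 in tt4) and AT3G60320 (-0.28 in tt4 and -0.019 for loss of CHS under MYB12OX). The fit takes the trend from differences within genotypes, so its errors grow with distance in the listing; the cause was not tested.

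MYB12OX against Col-0 gave 1 call with array weights. The pap1-D effect with and without CHS gave 1 call with no filter, with quantile normalization or on its own genotypes alone, and 0 to 2 when single arrays were left out. The WOX1-2 comparison between backgrounds gave 0 calls on its own genotypes and 0 to 1 when single arrays were left out, and the MYB12OX effect with and without CHS gave 0 to 1. The replicate numbers were not taken to pair the samples, since same-numbered arrays correlated at -0.14 to 0.56 in their deviations, over 0.1 in 36 of 84 pairs. As a hint from the data, 15 of 24 arrays correlated best with their own number, and r averaged 0.095 for the same number and -0.047 for different numbers. With the replicate block, 1 listed gene was called in MYB12OX against Col-0, in MYB12OX/tt4 against tt4 and for the MYB12OX effect with and without CHS, each with 0 otherwise. By Spearman's rho, 5 of the 8 named genes stayed among the closest or most opposite for each GARP gene.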
